A study of Rattus norvegicus with 12 samples.

Results

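Serum levels of 7 mature microRNAs of the miR-10, miR-99/100 and miR-125 families are described here, in rats given caffeine, dextromethorphan or both. The members are rno-miR-10a-5p, rno-miR-10b-5p, rno-miR-99a-5p, rno-miR-99b-5p, rno-miR-100-5p, rno-miR-125a-5p and rno-miR-125b-5p, named without the rat prefix from here on. The rule for membership used the family name and no measured value, but the families were picked with earlier results of these data known. They are 7 of the 752 mature microRNAs in the deposited table and 7 of the 366 that were tested. Each of the 4 groups gave 3 libraries from serum of male Sprague-Dawley rats (Jcl:SD) aged 7 weeks. The CAF group was given caffeine at 180 mg/kg, the DEX group dextromethorphan hydrobromide monohydrate at 200 mg/kg, the CAF+DEX group both doses, and the control group sterile distilled water, the vehicle of all doses. Each drug was given as a single dose by mouth. The combined doses were given 1 h apart, caffeine before dextromethorphan, and bleeding was 1 h after the dextromethorphan dose. The time from dosing to bleeding in the CAF and control groups is not given here. The design gives 5 rats per group and the labels do not say how the libraries relate to the animals, so every p-value refers to the spread among these libraries, which may be technical. Libraries are named as in the deposited table: CAF3, CAF4 and CAF5, DEX1, DEX2 and DEX3, CAFDEX2, CAFDEX3 and CAFDEX6, and ctrl1, ctrl3 and ctrl5. Values given in a row follow that order.

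MicroRNAs are short RNAs that guide Argonaute proteins to messenger RNAs, mainly through the seed, bases 2 to 8 from the 5′ end. The miR-10 genes lie within the Hox clusters, which pattern the body axis. The miR-99/100 genes lie beside let-7 and miR-125 genes in clusters that are conserved from insects to mammals, and miR-125 is the vertebrate relative of lin-4, the first microRNA found in Caenorhabditis elegans. In blood, microRNAs outside cells travel in vesicles and in protein complexes, and they come from blood cells, vessel walls and solid organs. A serum level therefore cannot tell apart a change in release, a change in the number of source cells and a change in clearance.

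Mature sequences were found in RefSeq (build GRCr8) for 6 of the 7 members and are printed to show which members share a seed. They run 5′ to 3′, with the seed in capitals.
miR-10a-5p: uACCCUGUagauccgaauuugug
miR-10b-5p: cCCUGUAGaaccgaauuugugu
miR-99b-5p: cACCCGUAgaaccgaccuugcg
miR-100-5p: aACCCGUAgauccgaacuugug
miR-125a-5p: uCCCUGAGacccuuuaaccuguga
miR-125b-5p: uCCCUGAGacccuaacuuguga
The miR-99b-5p and miR-100-5p sequences share the seed ACCCGUA, and the 2 miR-125 sequences share CCCUGAG. The miR-10a-5p seed is ACCCUGU, while the annotated miR-10b-5p seed is CCUGUAG. Read with an offset of 2 bases, miR-10a-5p and miR-10b-5p differed at 1 of 21 aligned bases. By the same count miR-10a-5p and miR-100-5p differed at 3 of 22 aligned bases, miR-99b-5p and miR-100-5p at 4 of 22, and miR-125a-5p and miR-125b-5p at 7 of 22 without gaps.

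The different seeds of the miR-10 pair come from where the mature sequence is annotated to start. This can be read in the hairpins, which are printed with the mature 5p sequence in capitals.
Mir10a: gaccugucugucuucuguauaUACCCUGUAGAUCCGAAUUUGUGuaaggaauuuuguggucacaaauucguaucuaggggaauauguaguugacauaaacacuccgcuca
Mir10b: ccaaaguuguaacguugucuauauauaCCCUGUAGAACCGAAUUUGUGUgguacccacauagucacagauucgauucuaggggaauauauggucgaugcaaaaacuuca
In the Mir10b hairpin the 2 bases before the annotated start are ua, the bases with which miR-10a-5p begins. The deposited table holds 1 row each for miR-10a-5p and miR-10b-5p, so reads that start at other bases cannot be seen in it.

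In the coordinates of the files (rn6), all members lie on the plus strand of 5 chromosomes. miR-99b-5p (chr1:59704222-59704243) and miR-125a-5p (chr1:59704841-59704864) start 619 bases apart, with let-7e-5p between them. miR-100-5p (chr8:45746960-45746981) lies 51314 bases before a miR-125b-5p copy (chr8:45798274-45798295). miR-99a-5p (chr11:16052165-16052186) lies 45197 bases before the other miR-125b-5p copy (chr11:16097362-16097383). miR-10b-5p is at chr3:61648005-61648026 and miR-10a-5p at chr10:84165971-84165993. By RefSeq's gene order in GRCr8, Mir10a lies between Hoxb5 and Hoxb4, Mir10b inside Hoxd4, and Mir99b and Mir125a inside Spaca6. Mir99a and Mir125b2 lie inside the long noncoding RNA gene LOC103693508, and Mir100 and Mir125b1 inside Lnc215. The reads of the 2 miR-125b-5p copies differed by at most 0.230% in any library, so the copies cannot be told apart and were summed.

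Levels are FPKM, reads scaled to the length of the mature sequence and to the library's reads assigned to the listed microRNAs, as deposited by the authors. The measure is relative, so an increase of abundant microRNAs lowers all others. Library totals recovered from the FPKM were 1504963 to 1842796 reads in CAF, 403913 to 895792 in DEX, 758290 to 1160717 in CAF+DEX and 1304868 to 2625593 in control libraries. DEX2 and DEX3 were the shallowest libraries, and CAFDEX3 was shallower than DEX1. The haemolysis index, a log2 ratio with miR-451-5p of red cells over miR-23a-3p, averaged -6.75 ± 0.35 in CAF, -5.62 ± 0.74 in DEX, -6.00 ± 0.40 in CAF+DEX and -7.56 ± 0.39 in control libraries (SD, n = 3 each). It was higher in every treated library than in every control, in CAF3 (-7.110) only just above ctrl3 (-7.115). The index and treatment therefore cannot be told apart in these libraries. Of the 3 erythrocyte microRNAs tested (4 were listed), none rose in CAF, 2 in DEX and 1 in CAF+DEX, and their summed level was 3641 to 5554 FPKM in CAF, 6349 to 13269 in DEX, 4055 to 6645 in CAF+DEX and 2515 to 3306 in control libraries. The shares of all tested microRNAs that rose were 6.83% in CAF, 11.5% in DEX and 6.56% in CAF+DEX.

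The 7 members together held 2.18%, 4.02% and 3.48% of the microRNA reads in CAF libraries, 5.20%, 2.07% and 2.47% in DEX, 1.76%, 5.45% and 2.23% in CAF+DEX, and 1.24%, 1.48% and 1.74% in control libraries. All 9 treated libraries lay above the 3 control libraries, CAFDEX2 only just. The group means were 3.22% ± 0.95, 3.24% ± 1.70, 3.14% ± 2.01 and 1.49% ± 0.25 (SD, n = 3 each) for CAF, DEX, CAF+DEX and control. DEX1 and CAFDEX3 stood well above the other libraries of their groups. Counting error was small beside this spread: the 95% Wilson interval was 1.73% to 1.78% in CAFDEX2 and 5.39% to 5.50% in CAFDEX3. Such intervals cover counting error only, since reads are not shown to be independent molecules. miR-125a-5p alone held 60.2% to 70.7% of the members' reads in each library.

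**Figure D1:**
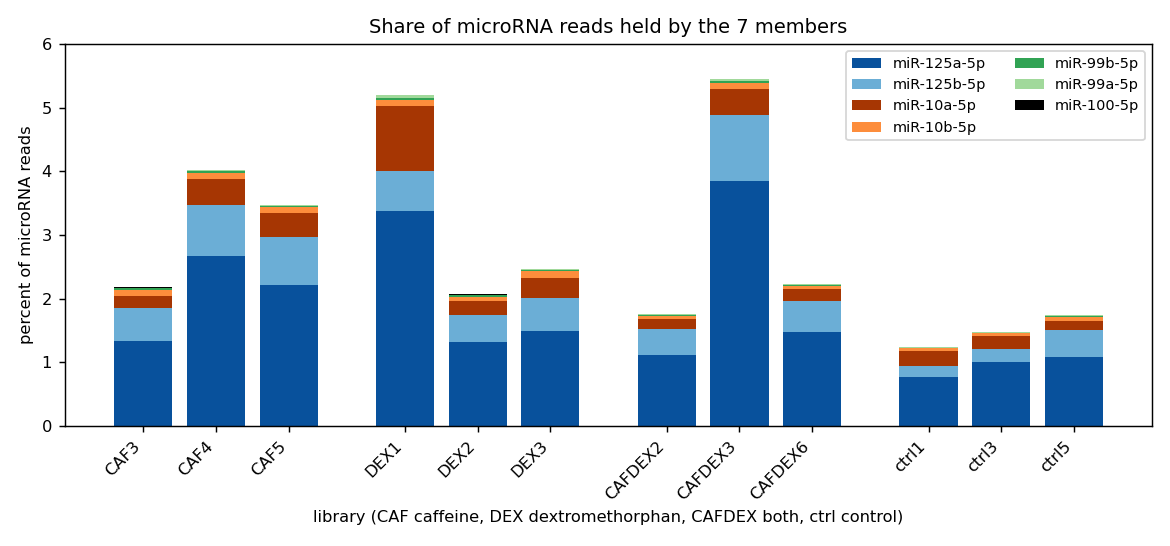
Stacked bars give the percent of microRNA reads held by each of the 7 members (y axis) in each of 12 libraries (x axis, grouped by treatment). miR-125a-5p fills most of every bar, and DEX1 (5.20%) and CAFDEX3 (5.45%) are the tallest.

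The order of the levels by group mean was the same in all 4 groups: miR-125a-5p, miR-125b-5p, miR-10a-5p, miR-10b-5p, miR-99b-5p, miR-99a-5p and miR-100-5p. Over all libraries they ranked 13, 28, 36, 64, 111, 125 and 225 of 752 by mean FPKM. Not every pair of neighbours in this order was separated by its spread. The ranges of miR-125b-5p and miR-10a-5p overlapped in DEX and control libraries, those of miR-99b-5p and miR-99a-5p in DEX and CAF+DEX libraries, and those of miR-125a-5p and miR-125b-5p in CAF+DEX libraries. The other neighbouring ranges were apart in each group. The highest library was 2.79-fold above the lowest for miR-99b-5p, the least variable member, and 7.49-fold for miR-10a-5p, the most variable.

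**Figure D2:**
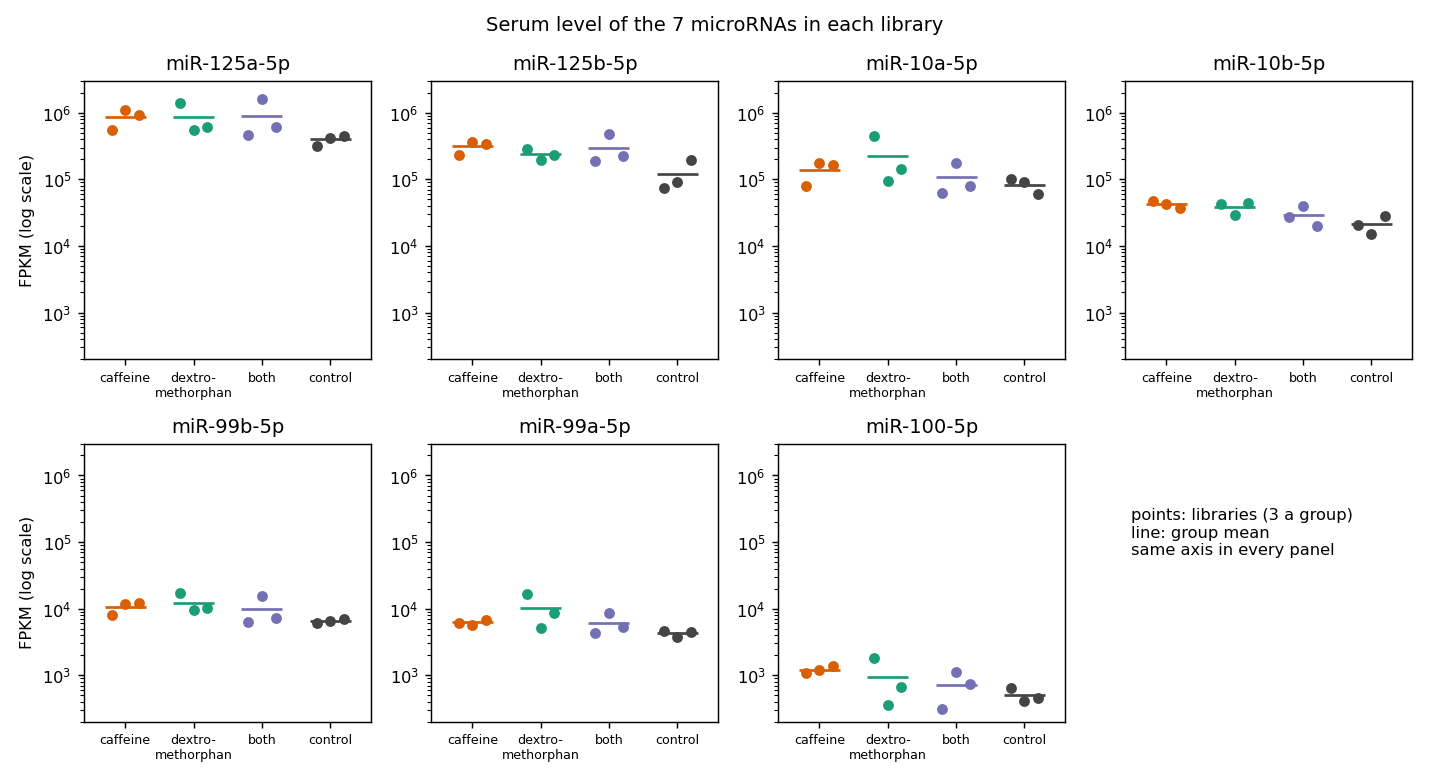
Each panel gives 1 microRNA, with FPKM on a log axis (y) in the 3 libraries of each group (points; lines are group means). All axes are the same, so the panels show both the order of the levels and the spread; DEX1 is the highest point for miR-10a-5p (444688 FPKM).

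miR-125b-5p was the member with the clearest difference. It stood at 235935, 367430 and 345372 FPKM in CAF libraries, 286897, 197522 and 234580 in DEX, 191664, 473204 and 224058 in CAF+DEX, and 75344, 91694 and 195910 in control libraries. All CAF and DEX libraries lay above all controls, while ctrl5, the highest control, lay above CAFDEX2. Relative to control it rose 2.81-fold in CAF (log2 fold change 1.49 ± 0.37 SE, adjusted p = 0.0308) and 2.47-fold in CAF+DEX (1.30 ± 0.37, adjusted p = 0.0423), by limma on log2(FPKM + 40) with Benjamini-Hochberg adjustment over 366 microRNAs. In DEX the log2 fold change was 1.10 ± 0.37, which did not pass (adjusted p = 0.0597). The 3 comparisons share the control libraries. The CAF call ended without CAF4, CAF5, ctrl1 or ctrl3, and the CAF+DEX call without CAF4, CAF5, CAFDEX2, CAFDEX3, ctrl1 or ctrl3, with adjusted p-values up to 0.151 and 0.179. When the haemolysis index was added as a covariate, the log2 fold changes were larger, 1.64 ± 0.46 in CAF and 1.60 ± 0.64 in CAF+DEX, but their errors were too and neither passed (adjusted p = 0.0843 and 0.511). Since every treated library exceeded every control in this index, such a fit cannot separate the index from treatment.

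miR-125a-5p has the seed of miR-125b-5p and was the most abundant member. It stood at 556069, 1112067 and 922296 FPKM in CAF libraries, 1405740, 547178 and 619797 in DEX, 461183, 1603087 and 614904 in CAF+DEX, and 321773, 420968 and 451546 in control libraries. Every treated library lay above every control, and miR-125a-5p was the one member with no overlap in all 3 comparisons, which share the control libraries. Of all tested microRNAs, 26.0% lay wholly above control in CAF, 26.0% in DEX and 18.0% in CAF+DEX. The share that did so in all 3 at once was not counted. The log2 fold changes of miR-125a-5p were 1.07 ± 0.43 in CAF (adjusted p = 0.150), 0.99 ± 0.43 in DEX (adjusted p = 0.123) and 0.96 ± 0.43 in CAF+DEX (adjusted p = 0.154), so none passed. The spread within the treated groups was wide: means were 863477 ± 282627 FPKM in CAF, 857572 ± 476114 in DEX, 893058 ± 619688 in CAF+DEX and 398096 ± 67843 in control (SD, n = 3 each).

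miR-10b-5p, the member of the HoxD cluster, stood at 47683, 42339 and 37452 FPKM in CAF libraries, 42015, 29001 and 44339 in DEX, 26846, 40342 and 20089 in CAF+DEX, and 20974, 15053 and 27763 in control libraries. The CAF and DEX libraries lay above all controls, and CAFDEX2 and CAFDEX6 fell within the control range. It rose 2.05-fold in CAF (log2 fold change 1.03 ± 0.31, adjusted p = 0.0493), just past the threshold. The log2 fold changes in DEX (0.87 ± 0.31, adjusted p = 0.0608) and CAF+DEX (0.44 ± 0.31, adjusted p = 0.371) did not pass. The CAF call was lost without any 1 of CAF3, CAF4, CAF5, DEX3, CAFDEX2, ctrl1 or ctrl3, with an adjusted p of up to 0.222. Of 12 other alternatives it held in 4 (a pseudocount of 160 FPKM, voom, only the CAF and control groups in the fit, and without DEX2 and DEX3 together), and the adjusted p in the others was at most 0.129.

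miR-10a-5p, the member of the HoxB cluster, was the most scattered. It stood at 79878, 176622 and 163892 FPKM in CAF libraries, 444688, 96011 and 141981 in DEX, 62630, 179179 and 80666 in CAF+DEX, and 101397, 90199 and 59410 in control libraries. Each treated group overlapped the controls, and DEX1 lay far above the other DEX libraries. Its log2 fold changes were 0.70 ± 0.50 in CAF (adjusted p = 0.423), 1.16 ± 0.50 in DEX (adjusted p = 0.122) and 0.25 ± 0.50 in CAF+DEX (adjusted p = 0.761), and none passed.

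The miR-99/100 members were lower, and none of them passed against control. miR-99b-5p, encoded beside miR-125a-5p, stood at 8004, 11642 and 12111 FPKM in CAF libraries, 16897, 9428 and 10353 in DEX, 6253, 15705 and 7206 in CAF+DEX, and 6048, 6544 and 7071 in control libraries. miR-99a-5p stood at 6173, 5772 and 6705 FPKM in CAF libraries, 16846, 5175 and 8665 in DEX, 4241, 8722 and 5248 in CAF+DEX, and 4536, 3809 and 4389 in control libraries. For both, all CAF and all DEX libraries lay above all controls, and CAFDEX2 lay inside the control range. Their log2 fold changes were 0.67 ± 0.35 (miR-99b-5p) and 0.55 ± 0.38 (miR-99a-5p) in CAF, 0.85 ± 0.35 and 1.10 ± 0.38 in DEX, and 0.44 ± 0.35 and 0.45 ± 0.38 in CAF+DEX. The lowest adjusted p among these 6 was 0.0608, for miR-99a-5p in DEX.

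miR-100-5p was the least abundant member, at 1063, 1209 and 1359 FPKM in CAF libraries, 1827, 359 and 675 in DEX, 306, 1109 and 744 in CAF+DEX, and 648, 415 and 453 in control libraries. The CAF libraries lay above all controls and close together, while the DEX and CAF+DEX libraries spanned the control range. Its log2 fold changes were 1.21 ± 0.53 in CAF (adjusted p = 0.176), 0.59 ± 0.53 in DEX (adjusted p = 0.445) and 0.34 ± 0.53 in CAF+DEX (adjusted p = 0.701). These values rest on few reads, from 3.5 in DEX2 to 49 in CAF4, where 3 reads on a microRNA of 22 bases were worth 307 and 74.0 FPKM.

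Counted over the members, 2 of 7 rose in CAF relative to control, where 6.83% of all tested microRNAs did. At an unadjusted p under 0.05, 4 of 7 were higher (19.9% of all tested), and 6 of 7 had all CAF libraries above all controls (26.0% of all tested). All 7 log2 fold changes were above 0, as were 60.9% of all tested. Their median was 1.03, against 0.19 for all tested microRNAs.

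In DEX none of the 7 members passed, where 11.5% of all tested microRNAs rose. None passed by limma's voom on the recovered counts either. At an unadjusted p under 0.05, 6 of 7 were higher (26.2% of all tested), the exception being miR-100-5p, and 5 of 7 had all DEX libraries above all controls (26.0% of all tested). All 7 log2 fold changes were above 0, as were 67.5% of all tested, with medians of 0.99 for the members and 0.47 for all tested. DEX2 and DEX3 were the shallowest libraries of all, and the members stood lower there than in DEX1 except for miR-10b-5p in DEX3. Without both, DEX rested on DEX1 alone, and the log2 fold changes were 2.45 for miR-10a-5p and 1.98 for miR-99a-5p. This alternative was chosen after seeing the data, and a single library has no spread of its own. Without DEX1 the members' values were lower instead: their median was 0.59 (all tested 0.41), miR-10a-5p was at 0.52 ± 0.43, miR-100-5p at -0.0069 ± 0.49, and no member passed while 18.0% of all tested rose.

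In CAF+DEX 1 of 7 members rose relative to control (6.56% of all tested), 2 of 7 were higher at an unadjusted p under 0.05 (16.7% of all tested), and 1 of 7 had no overlap (18.0% of all tested). All 7 log2 fold changes were above 0, as were 60.7% of all tested. The medians were 0.44 for the members and 0.24 for all tested. The members' median rested on single libraries: it was 0.16 without CAFDEX3 (all tested 0.08), with 5 of 7 members above 0, and 0.70 without CAFDEX2 (all tested 0.23). In a fit that also held the haemolysis index, the members' medians were 1.21 in CAF, 1.75 in DEX and 1.44 in CAF+DEX, against 0.11, 0.22 and -0.02 for all tested, and no member passed. That fit cannot separate the index from treatment, since no control reached the index of a treated library.

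The median of all tested microRNAs depends on the scaling. With median-of-ratios scaling it was -0.04 in CAF, 0.11 in DEX and 0.09 in CAF+DEX, and the members' medians were 0.78, 0.58 and 0.28. All 7 members remained above 0 in the 3 comparisons with control under this scaling, under quantile normalization and after rescaling without miR-191a-5p, and the CAF call of miR-125b-5p held under the last of these alone. The share of all tested microRNAs above 0 under these scalings was not counted.

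**Figure D3:**
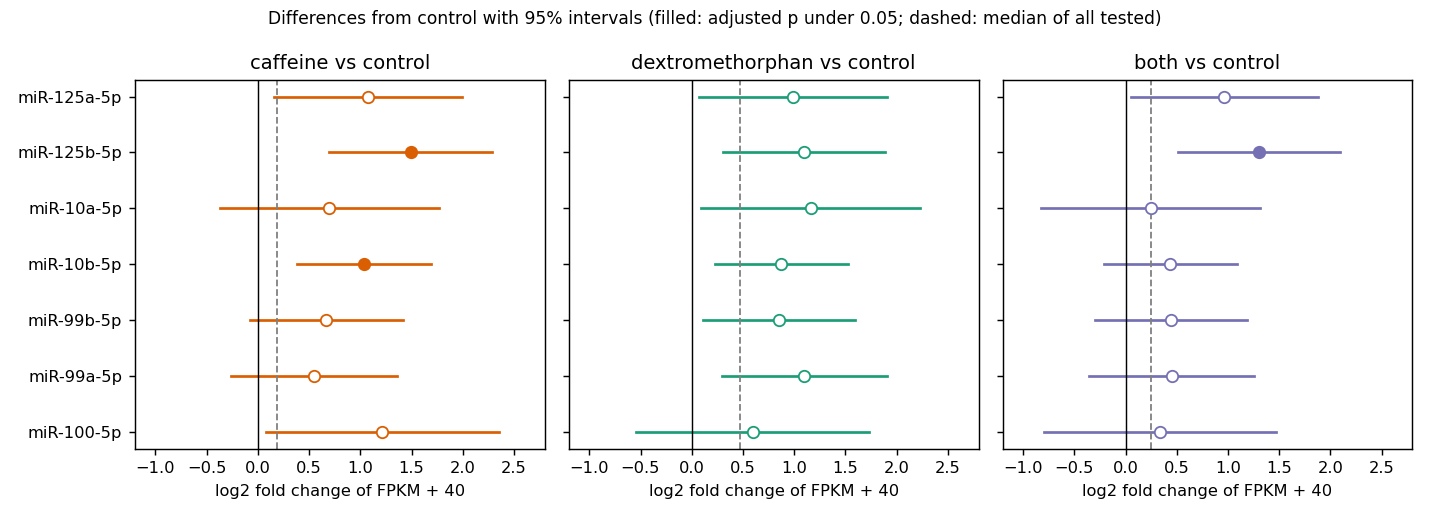
Log2 fold changes against control (x axis) of the 7 microRNAs (rows) with 95% intervals from limma, in CAF, DEX and CAF+DEX. Filled points passed the adjusted p (miR-125b-5p and miR-10b-5p in CAF, miR-125b-5p in CAF+DEX), and the dashed lines mark the median of all tested microRNAs at 0.19, 0.47 and 0.24.

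Whether the combination differed from each drug alone was tested in the same model. Relative to CAF, none of the 7 members differed in CAF+DEX, and no other microRNA passed by limma or by voom (0% of 366). At an unadjusted p under 0.05 limma gave 0 members and 6.01% of all tested. The members' log2 fold changes ran from -0.88 (miR-100-5p) to -0.10 (miR-99a-5p). Relative to DEX, none of the 7 differed (3.55% of all tested), with 0 at an unadjusted p under 0.05 (16.1% of all tested). The log2 fold changes ran from -0.91 (miR-10a-5p, 95% interval -1.98 to 0.15) to 0.20 (miR-125b-5p), so large and small differences of miR-10a-5p both lie within its interval.

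The interaction contrast gives the departure of CAF+DEX from the sum of the single-drug changes on the log2 scale. It was below 0 for all 7 members, from -1.61 (miR-10a-5p) to -1.07 (miR-99b-5p), with a median of -1.28 against -0.39 for all tested microRNAs. Most of those tested were below 0 too, with 31.7% above it. No member passed (4.64% of all tested were lower). At an unadjusted p under 0.05, 5 of 7 were lower (21.0% of all tested), all but miR-100-5p and miR-125a-5p. The lowest adjusted p was 0.0654, for miR-10b-5p (-1.47 ± 0.43). The CAFDEX libraries differed from each other here: without CAFDEX3, 3 members passed (miR-10b-5p, miR-99b-5p and miR-125b-5p), but the share of all tested that were lower was then 10.4%. With 1 library left out, the members' median ran from -1.68 (without CAFDEX3) to -0.87 (without DEX1). The median of all tested microRNAs was above 0 with median-of-ratios scaling (0.10) and quantile normalization (0.14), where the members' medians were -0.79 and -0.94 and all 7 stayed below 0, the least at -0.58 and -0.21. How many of all tested microRNAs were below 0 under these scalings was not counted.

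Ratios between members do not depend on the scaling of a library. Of 6 ratios compared across the 4 groups by an exact permutation test, none passed after Benjamini-Hochberg adjustment over the 6. The test used the between-group F statistic, which has no direction. The lowest p was that of miR-100-5p over miR-99a-5p, a pair of the same family in different clusters (exact p = 0.0203, adjusted p = 0.122). That ratio was 0.194 in CAF, 0.0837 in DEX, 0.109 in CAF+DEX and 0.117 in control libraries, as geometric means. On the log2 scale the CAF libraries lay between -2.54 and -2.26, and every other library at -2.81 or lower. Without CAFDEX2 the adjusted p was 0.0140, and without CAF5 it was 0.370. The ratio is limited by the few reads of miR-100-5p: 3.5 in DEX2, 6 in DEX3 and 7 in CAFDEX2, against 36 to 49 in CAF libraries.

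The pair encoded together on chromosome 1, miR-125a-5p over miR-99b-5p, had ratios of 79.7 in CAF, 66.1 in DEX, 86.3 in CAF+DEX and 60.2 in control libraries (exact permutation p = 0.0981, adjusted p = 0.294). The pair with a shared seed, miR-125a-5p over miR-125b-5p, had ratios of 2.67, 3.30, 2.82 and 3.56 in CAF, DEX, CAF+DEX and control (adjusted exact permutation p = 0.709). For miR-10b-5p over miR-10a-5p the ratios were 0.320, 0.207, 0.289 and 0.253 in the same order (adjusted exact permutation p = 0.779). The remaining ratios, miR-99b-5p over miR-99a-5p and miR-125b-5p over miR-100-5p, had an adjusted exact permutation p of 0.709 each.

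**Figure D4:**
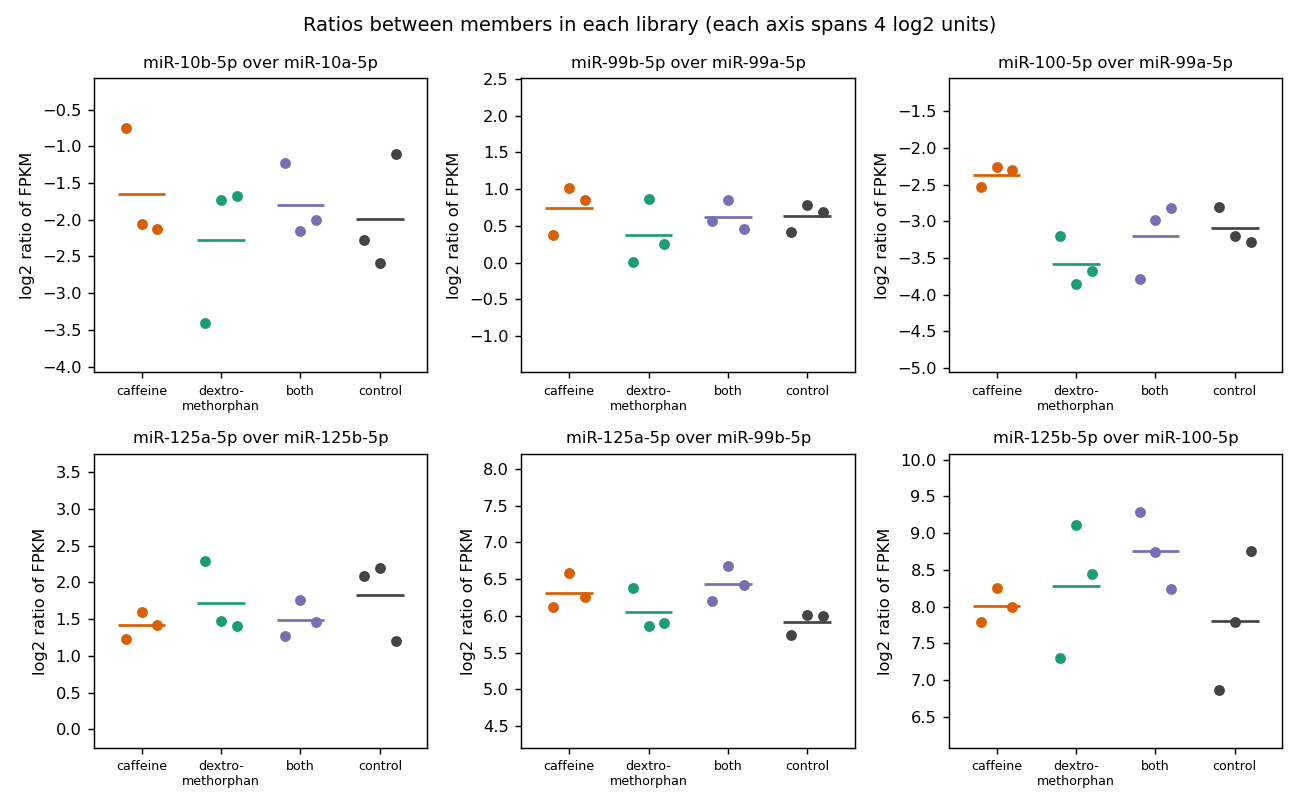
Log2 ratios of FPKM (y axis) for 6 pairs of members in the 3 libraries of each group (points; lines are means of the log2 ratios). Every axis spans 4 log2 units, and only for miR-100-5p over miR-99a-5p do all CAF libraries (-2.54 to -2.26) lie apart from the other 9. miR-100-5p rests on few reads, 3.5 to 49 in a library.

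The 3p arms come from the other strand of the same hairpins and are usually the less stable product. Of 8 listed, 7 were tested, since miR-100-3p was at 0 in all 12 libraries. Only miR-10a-3p passed, and only in DEX, where 11.5% of all tested microRNAs rose. It rose 2.82-fold there (log2 fold change 1.49 ± 0.43, adjusted p = 0.0370). It averaged 2308 ± 822 FPKM in DEX and 764 ± 92.0 FPKM in control libraries (SD, n = 3 each), on 14 to 63 reads in DEX and 23 to 48 in control libraries. Its CAF value was near that size and did not pass (1.27 ± 0.43, adjusted p = 0.0754), and the difference between the drugs was not tested.

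miR-125a-3p differed less between the groups than its 5p partner did. It averaged 1316 ± 127 FPKM in CAF, 1345 ± 189 in DEX, 1369 ± 471 in CAF+DEX and 1242 ± 246 in control libraries (SD, n = 3 each), with log2 fold changes of 0.10, 0.12 and 0.10. The ratio of the 5p to the 3p arm was 632 in CAF, 585 in DEX, 585 in CAF+DEX and 322 in control libraries, and ctrl5, at 471, lay among the treated libraries. For miR-10a the controls were the highest in mean instead, with ratios of 70.1 in CAF, 82.4 in DEX, 66.0 in CAF+DEX and 107 in control libraries. Only ctrl1 (154) lay above every treated library, while ctrl3 (109) and ctrl5 (74.2) lay below DEX1 (139). For miR-10b the ratio was 55.1 in CAF, 76.4 in DEX, 59.8 in CAF+DEX and 60.0 in control libraries. For miR-99b the ratio of 5p to 3p was 2.29 in CAF, 3.53 in DEX, 2.69 in CAF+DEX and 2.39 in control libraries, and DEX2, on 19 reads of the 3p arm, gave the highest value, 4.84. The arm ratios were chosen after values were seen and were not tested.

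**Figure D5:**
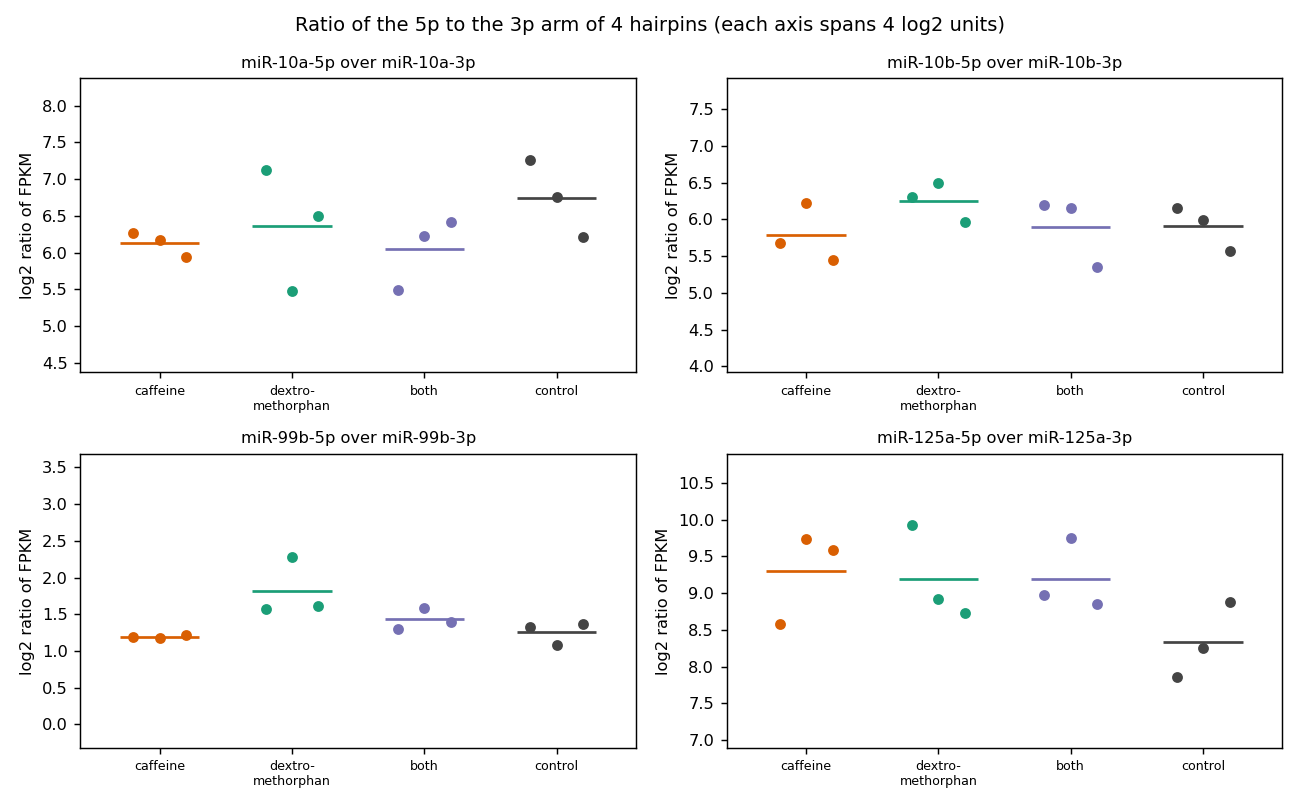
Log2 ratio of the 5p to the 3p arm (y axis) of 4 hairpins in the 3 libraries of each group (points; lines are means of the log2 ratios). The miR-125a panel has the controls lowest in mean (ratios of 585 to 632 after treatment against 322), with ctrl5 among the treated libraries. The miR-10a panel has the controls highest in mean (66.0 to 82.4 against 107), but ctrl3 (109) and ctrl5 lie below DEX1 (139).

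Genes of let-7e, let-7a and let-7c lie in the clusters of chromosomes 1, 8 and 11. The files also place a copy of let-7a-5p on chromosome 17 and one of let-7c-5p on chromosome 7, so the summed values of these 2 are not those of the cluster genes alone. None of let-7a-5p, let-7c-5p and let-7e-5p passed in any of the 3 comparisons with control. let-7e-5p, which lies between miR-99b-5p and miR-125a-5p, had log2 fold changes of 0.29 ± 0.37 in CAF, 0.59 ± 0.37 in DEX and 0.56 ± 0.37 in CAF+DEX, and let-7c-5p of -0.32 ± 0.31, 0.10 ± 0.31 and -0.05 ± 0.31. Reads of the let-7 family match several places and were divided by the authors' counting, which limits these values. Of 6 other microRNAs of the Hox clusters, 4 were tested and none passed. The most abundant, miR-196b-5p, had log2 fold changes of -0.52 ± 0.37 in CAF, 0.44 ± 0.37 in DEX and -0.18 ± 0.37 in CAF+DEX. miR-196a-5p, which targets Hox messenger RNAs, had 0.55 ± 0.40, 0.76 ± 0.40 and 0.38 ± 0.40 in the same order, miR-196c-5p 0.37, 0.50 and 0.43, and miR-615 -0.14, 0.78 and 0.34.

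For each member, the tested microRNAs with the most similar profile over the 12 libraries were named by the root mean square difference of centred log2 values, among 177 non-members above the median level. Nearest to miR-10a-5p were miR-143-3p (0.231), a microRNA of smooth muscle, and miR-143-5p (0.375). Nearest to miR-10b-5p were miR-152-3p (0.247) and miR-199a-3p (0.255), the second a microRNA of fibroblasts and other stroma, which was also second nearest to miR-99a-5p (0.313) after miR-455-5p (0.253). miR-195-3p and miR-195-5p were nearest to miR-125a-5p (0.166 and 0.236). For miR-99b-5p they were miR-23b-3p (0.244) and miR-195-3p (0.253), for miR-100-5p miR-99b-3p (0.396) and miR-195-5p (0.419), and for miR-125b-5p miR-27b-3p (0.362) and miR-195-3p (0.408). Among the members themselves, miR-99b-5p and miR-125a-5p were nearest to each other of all pairs (0.282). The pair of miR-99a-5p and miR-99b-5p, on different chromosomes, was almost as near (0.285). These differences describe the same 12 libraries and share their scaling and depth.

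Markers of several tissues also differed between the groups. Of all tested microRNAs, 6.83% rose in CAF, 11.5% in DEX and 6.56% in CAF+DEX. miR-122-5p, the liver microRNA, rose in CAF, DEX and CAF+DEX (log2 fold changes 1.78, 1.64 and 1.78). Of 4 listed striated muscle microRNAs, 3 rose in CAF (miR-1-3p, miR-133a-3p and miR-206-3p), 1 in DEX and 2 in CAF+DEX. All 5 listed epithelial microRNAs rose in DEX and none in CAF or CAF+DEX, and their summed level was 16246 to 26557 FPKM in CAF, 34140 to 125822 in DEX, 19323 to 24964 in CAF+DEX and 11580 to 16432 in control libraries. miR-199a-3p rose in CAF (1.21 ± 0.33, adjusted p = 0.0419) and DEX (1.17 ± 0.33, adjusted p = 0.0352), and the summed stromal list stood at 140144 to 166352 FPKM in CAF, 87392 to 225916 in DEX, 83453 to 155519 in CAF+DEX and 58095 to 79538 in control libraries. The summed list of endothelium and smooth muscle stood at 447815 to 890328 FPKM in CAF, 686707 to 2237085 in DEX, 458747 to 1582137 in CAF+DEX and 474112 to 488576 in control libraries. Of its 4 members, miR-126a-3p rose in CAF+DEX, and none in CAF or DEX. Among 3 leukocyte microRNAs, miR-150-5p of lymphocytes rose in CAF and CAF+DEX (log2 fold changes 1.43 and 2.20). The other 2 did not pass. miR-223-3p of myeloid cells had -0.20 in CAF, -0.66 in DEX and -0.22 in CAF+DEX. All its DEX libraries lay below all controls, as did those of 7.1% of all tested microRNAs. miR-142-3p had -0.23, 0.96 and 0.12 in CAF, DEX and CAF+DEX. The part of these tissues in the members' levels was not tested.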

How the data were processed

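The authors deposited FPKM per mature microRNA and library. The submitters' processing notes list DESeq2 1.20.0, Subread 2.0.1, featureCounts, STAR 2.7.10a, cutadapt 3.7 and build rn6; the step of each, the strand setting and the use of the kit's molecular indices are not given in the sources used here. RNA was from 200 uL of serum (miRNeasy Micro, QIAseq miRNA kit), per the labels' protocols.

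FPKM times length had the same sum in each library. Reads were recovered as multiples of 0.01 within 0.0001 of a step; 65.4% to 75.0% were whole, so some reads had been divided between loci. Rows of 1 name were summed (836 rows, 752 names). Names with a mean of 80 FPKM or more and a value above 0 in 3 or more libraries were tested. log2(FPKM + 40), which understates changes of low values, entered limma 3.58.1 (R 4.3.3) in 1 model of 4 groups with a mean-variance trend (degrees of freedom: residual 8, prior 7.58). Adjustment of two-sided p-values was by Benjamini-Hochberg over 366 names, with a threshold of 0.05. Ratios were compared by the exact permutation of libraries over groups (369600 assignments). 3 libraries against 3 cannot give an exact p below 0.1. The tests were checked on simulated data. Precision is limited by depth: 1 read on 22 bases is 17.3 FPKM in ctrl3 and 113 FPKM in DEX3.

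The members and lists were chosen with earlier results of these data known. Named beside the members are the 2 nearest profiles at most, list members that passed or were most abundant, and the microRNAs of the haemolysis index and the scaling. Values for let-7e-5p, let-7c-5p, miR-196a-5p, miR-196c-5p, miR-615, miR-223-3p, miR-142-3p, miR-125a-3p and miR-99b-3p were chosen after they were seen.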

Additional observations from a re-analysis of the deposited data

How the results depend on the processing

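Depth limits miR-100-5p most (3.5 to 49 reads), and 3 libraries a group limit every call. FPKM are relative within a library, so a shift of all microRNAs would not be seen, and no value here ties a level to a tissue of origin. No result met the rules for a closer look, and groups of 3 are not tested for outlying libraries. No paired analysis was possible because the column numbers could not be tied to the replicate numbers of the sample titles.

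Against 2 members passing in CAF relative to control, 1 (miR-125b-5p) passed with a pseudocount of 10 FPKM, without miR-191a-5p in the scaling and with each row tested by itself, where 4.38% to 6.01% of all tested rose. None (0) passed with no filter, median-of-ratios scaling, quantile normalization, no mean-variance trend or the haemolysis index as covariate (1.37% to 3.28% of all tested), and 4 with only the 2 groups in the fit (16.4%). Leaving out 1 library gave 0 to 2. In CAF+DEX relative to control, 1 member passed as reported, and 0 with no filter, median-of-ratios scaling, quantile normalization, rescaling without miR-191a-5p, no trend or the index (0.273% to 5.19% of all tested rose); leaving out 1 library gave 0 to 1. In DEX relative to control, 0 passed as reported, and 0 to 3 with 1 library left out (3 without CAFDEX3, 2 without ctrl5 and 1 without DEX2, with 16.1%, 10.9% and 5.74% of all tested). Without DEX2 and DEX3 together, DEX rested on DEX1 alone, so no count passing is given for DEX or the interaction. That alternative was chosen after the data were seen. The members' median log2 fold change was then 1.80 in DEX and -1.94 for the interaction. For the interaction, 0 passed as reported, and 0 to 3 with 1 library left out (3 without CAFDEX3, 2 without ctrl5 and 1 without DEX2, with 10.4%, 6.01% and 4.64% of all tested lower). A pseudocount of 160 FPKM and voom left these 4 counts as they were, as did the counts of 0 for CAF+DEX relative to CAF and to DEX under all alternatives run. For miR-100-5p over miR-99a-5p the adjusted p with 1 library left out was 0.0140 (without CAFDEX2) to 0.370 (without CAF5). The cause of these changes was not tested.

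Several log2 fold changes changed sign. Not all of them were near 0 as reported: miR-100-5p in DEX relative to control was 0.59. For CAF+DEX relative to CAF, miR-125a-5p was 0.19 and miR-99a-5p 0.38 with the index, and miR-99a-5p 0.06 by quantile normalization (0.057). For CAF+DEX relative to DEX, miR-125a-5p was 0.22 by median-of-ratios, 0.08 by quantile normalization (0.082) and 0.03 without miR-191a-5p (0.029), miR-99b-5p was 0.01 by quantile normalization (0.011), and miR-125b-5p was -0.07 without DEX2 and DEX3 (-0.072). With 1 library left out, the ranges that crossed 0 were as follows. Relative to control, miR-100-5p ran from -0.0069 to 1.11 in DEX and from -0.043 to 0.82 in CAF+DEX, and miR-10a-5p from -0.20 to 0.56 in CAF+DEX. In CAF+DEX relative to CAF, miR-125a-5p ran from -0.64 to 0.26, miR-125b-5p from -0.58 to 0.07 (0.0685), miR-99a-5p from -0.39 to 0.12 and miR-99b-5p from -0.63 to 0.03 (0.0312). In CAF+DEX relative to DEX, miR-100-5p ran from -0.77 to 0.34, miR-125a-5p from -0.55 to 0.40 and miR-125b-5p from -0.19 to 0.46. None of these passed the threshold in any of these fits.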
